A study of Mus musculus with 18 samples.

Results

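The skeletal muscle genes described here are 43 of the 20325 genes listed in each deposited table, chosen by symbol from a fixed list. They were looked up in the table of tumors and histone lines and in the table of siRNA-treated cells, and all 43 symbols were found in both. They encode the sarcomere (myosins, actin, troponins, titin, nebulin and the Z disc), the calcium release machinery, muscle enzymes and the 4 myogenic regulatory factors. In textbook muscle development Myod1 and Myf5 commit mesodermal cells to the lineage, Myog and Myf6 drive terminal differentiation, and these factors bind E-boxes beside MEF2 proteins to switch on the contractile genes. Adult fibers then differ in their isoforms. Slow fibers use Myh7, Tnni1, Tnnt1 and Tnnc1, and fast fibers use Myh1, Myh2, Myh4, Tnni2, Tnnt3, Tnnc2 and Actn3. C3H10T1/2 cells, a mesenchymal line from C3H mouse embryos, are a classical host for turning on myogenesis by forced Myod1 expression.

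RNA sequencing covered 18 libraries in 6 groups. The 6 tumors grew from C3H10T1/2 cells that carry FLAG-HA-tagged H3.3K36M, in which lysine 36 of histone H3.3 is replaced by methionine. They arose 5 to 6 weeks after 2000000 of these cells in Matrigel were placed under the skin of both flanks of athymic female SCID mice aged 6 to 8 weeks. The cultured groups were C3H10T1/2 cells that stably express FLAG-HA-tagged H3.1K36M (n = 2), cells with tagged H3.3K36M (n = 2), cells with tagged wild-type H3.3 (H3.3 WT, n = 2), parental cells in which siRNAs target Setd2, Nsd1 and Nsd2, enzymes that methylate H3K36 (HMT siRNA, n = 3) and parental cells given a scramble siRNA (control siRNA, n = 3), all at passage 10 to 15. Each histone line is 1 line, and with both flanks injected, tumors may share a mouse. Separate cultures are not stated for the libraries of a group, so each p-value reflects library-to-library spread that may be technical. Both the host and the injected cells are mouse, so their RNA cannot be told apart in the tumors.

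Depth was 13993307 to 56041839 estimated reads per library. Levels are normalised estimated counts, in which 1 read was worth 0.578 to 1.44 in the table with tumors, so values under about 10 rest on few reads. Values that came out as whole reads were less frequent in the 4 H3.3 culture libraries (76.2 to 78.1% of genes with 1 to 20 estimated reads) than in the other 14 libraries (83.5 to 86.0%), and the labels name no batch. Comparisons of tumors or H3.1K36M cells with H3.3 cultures, and of the H3.3K36M and siRNA responses, cross that split, and its part in them was not tested. H3.3K36M against H3.3 WT lies within it. Setd2 was at 1134 ± 82.0 in HMT siRNA cells, against 3247 ± 145 in control siRNA cells, Nsd1 at 3279 ± 125 against 4723 ± 310, and Nsd2 (listed as Whsc1) at 1059 ± 54.6 against 1588 ± 21.3, in the same order (SD, n = 3 each). Log2 fold changes, on the log2(value + 1) scale, are given ± their standard error, and called means an adjusted p under 0.05 in limma.

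The start-site regions of 5 members are shown to locate the E-boxes, MEF2 boxes and CArG boxes that myogenic factors, MEF2 proteins and serum response factor are known to bind. Ckm and Myh4 were expressed in every tumor and near 0 in the H3.3K36M cultures. Myog was at 0 in both of these cultures and at 0 to 27.2 in tumors. Tnni1 and Eno3 moved in opposite directions in mutant against WT cultures. The windows are RefSeq sequence of GRCm38.p6, 250 bases before to 50 after the start, on the strand of the gene, and the expression tables were made on another build. Capitals mark each match to the patterns CANNTG (E-box), YTAWWWWTAR (MEF2 box) and CCWWWWWWGG (CArG box). In these, N is any base, Y is C or T, W is A or T and R is A or G. Near matches stay in lower case, such as ctatatttat in the Myog window, so lower case does not mean that a site is absent.
Ckm (chr7:19410844-19411143, + strand): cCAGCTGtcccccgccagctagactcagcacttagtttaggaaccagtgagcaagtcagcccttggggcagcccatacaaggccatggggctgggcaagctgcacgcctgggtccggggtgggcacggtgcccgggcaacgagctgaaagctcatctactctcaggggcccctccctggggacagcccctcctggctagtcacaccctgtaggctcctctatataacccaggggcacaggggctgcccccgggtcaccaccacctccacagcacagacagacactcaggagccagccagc
Myh4 (chr11:67237562-67237861, + strand): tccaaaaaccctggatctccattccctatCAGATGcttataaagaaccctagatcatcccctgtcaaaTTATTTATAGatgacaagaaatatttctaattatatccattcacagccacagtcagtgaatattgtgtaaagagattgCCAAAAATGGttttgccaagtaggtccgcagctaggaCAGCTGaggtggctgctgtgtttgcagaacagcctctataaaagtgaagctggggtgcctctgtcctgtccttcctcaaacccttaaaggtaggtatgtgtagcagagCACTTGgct
Myog (chr1:134289754-134290053, + strand): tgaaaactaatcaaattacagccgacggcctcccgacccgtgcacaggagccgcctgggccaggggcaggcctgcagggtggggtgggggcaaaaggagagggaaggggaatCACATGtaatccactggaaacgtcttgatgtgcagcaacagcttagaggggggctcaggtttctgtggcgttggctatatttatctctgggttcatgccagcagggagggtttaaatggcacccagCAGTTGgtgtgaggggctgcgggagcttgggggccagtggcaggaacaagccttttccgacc
Tnni1 (chr1:135799171-135799470, + strand): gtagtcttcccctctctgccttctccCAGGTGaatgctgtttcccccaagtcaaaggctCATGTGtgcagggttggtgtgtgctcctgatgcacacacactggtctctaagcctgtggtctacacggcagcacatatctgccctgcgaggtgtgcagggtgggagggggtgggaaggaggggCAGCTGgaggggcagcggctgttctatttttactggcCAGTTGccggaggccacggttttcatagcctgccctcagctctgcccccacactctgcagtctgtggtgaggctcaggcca
Eno3 (chr11:70656926-70657225, + strand): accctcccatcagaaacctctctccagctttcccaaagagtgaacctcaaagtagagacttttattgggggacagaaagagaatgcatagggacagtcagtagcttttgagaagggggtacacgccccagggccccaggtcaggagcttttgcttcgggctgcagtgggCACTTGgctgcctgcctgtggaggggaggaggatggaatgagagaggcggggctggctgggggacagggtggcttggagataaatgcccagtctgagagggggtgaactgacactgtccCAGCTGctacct

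Of the 43 members, 34 had such a window in the RefSeq table, in 41 windows, searched on both strands. The E-box CANNTG was found in 33 of the 41 (80.5%), against 72.3% of all 32841 windows of that length. The narrower E-box CAGCTG, which is also counted under CANNTG, was in 18 of 41 (43.9%), against 16.3% of all windows. MEF2 boxes were in 6 of 41 (14.6%, against 3.2% of all) and CArG boxes in 5 of 41 (12.2%, against 1.6%). Windows of the same gene can overlap and count a site again, as for the CArG box of Ldb3. By gene, CANNTG was found in 28 of 34, CAGCTG in 15, MEF2 boxes in 6 and CArG boxes in 4. No such share by gene was computed over all genes. The Myh4 window held all of these motif kinds, with CAGCTG 67 bases before the start, the CArG box 104 before and the MEF2 box 182 before. Tnni1 held 4 E-boxes, 1 of them CAGCTG 68 bases before the start, and the Ckm match lay at the far edge of its window. These are letter matches and say nothing of binding.

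In the tumors, compared with the cultured H3.3K36M cells they grew from, fast fiber genes, muscle creatine kinase and calcium handling genes were present in every tumor, at up to 3934 normalised estimated counts for Myh4, while the cultures held few or no reads of many of them. Of 37 members tested, 26 rose in tumors, none fell and 11 did not pass. The lowest unadjusted p of a member with a negative difference was 0.0551, for Ldb3 in limma. Over all genes tested, 41.0% rose and 34.2% fell, 75.2% together. The median log2 difference was 3.23 over the tested members and 0.14 over all 14842 tested genes. These counts are a description, because 20 of the 37 reached the minimum level through tumors alone, and 18 of those were called. Among the other 17, whose cultured libraries also reached it, 8 were called and 9 were not. Every tumor lay above both cultured libraries for 29 of the 37 tested members, a pattern found for 42.2% of all genes tested. In bulk RNA, fewer cells of a type and less RNA per cell cannot be told apart.

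The 4 myogenic regulatory factors were near the limit of detection. Myog, the driver of terminal differentiation, was at 6.70, 26.2, 27.2, 20.2, 4.33 and 0 in tumors 1 to 6, and at 0 in both H3.3K36M cultures. Tumor 6, which was highest for most other members, was the one tumor with no Myog, so its range overlapped that of the cultures. Myog was called (adjusted p = 0.0334), but without tumor 2, 3 or 4 the adjusted p was 0.0545 to 0.0614. Myf6, an adult fiber factor, was at 1.34, 3.62, 4.08, 2.02, 8.66 and 18.4 in tumors 1 to 6 and at 0 in both cultures. Myod1 stayed at 0.670 to 3.44 in tumors, against 0 in both cultures. Myf5, the early commitment factor, was at 0 in tumors 1 to 5 and at 2.29 in tumor 6, against 0.578 and 0 in the cultures. The last 3 were under the level needed for a test.

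All 3 adult fast myosin heavy chains, the motors of fast fibers, rose in tumors. Myh4, the IIb isoform, was at 24.4, 59.7, 13.6, 15.2, 1416 and 3934 in tumors 1 to 6, against 0.572 and 0 in H3.3K36M cultures (log2 6.49 ± 2.14, adjusted p = 0.0202). Myh1, the IIx isoform, was at 335, 463, 155, 187, 490 and 2690 in tumors 1 to 6, against 1.73 and 0.949 in the cultures (log2 7.53 ± 0.90, adjusted p = 5.97e-05). Tumors 5 and 6 stood far above the others for Myh4, whereas for Myh1 tumor 5 was close to tumor 2. Myh2, the IIa isoform, was at 25.4 to 461 in tumors and at 0 in both cultures (adjusted p = 0.000174). Per kb of transcript, the order of the isoforms changed between tumors. In tumor 6 Myh4 was first at 654 normalised estimated counts per kb, followed by Myh1 at 442, Myh2 at 75.8 and the slow Myh7 at 34.7. In tumor 1 Myh1 was first at 55.1 per kb, ahead of Myh2 at 7.76, Myh4 at 4.06 and Myh7 at 2.40. Myh1 also led in tumors 2, 3 and 4, and Myh4 led in tumor 5.

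**Figure D1:**
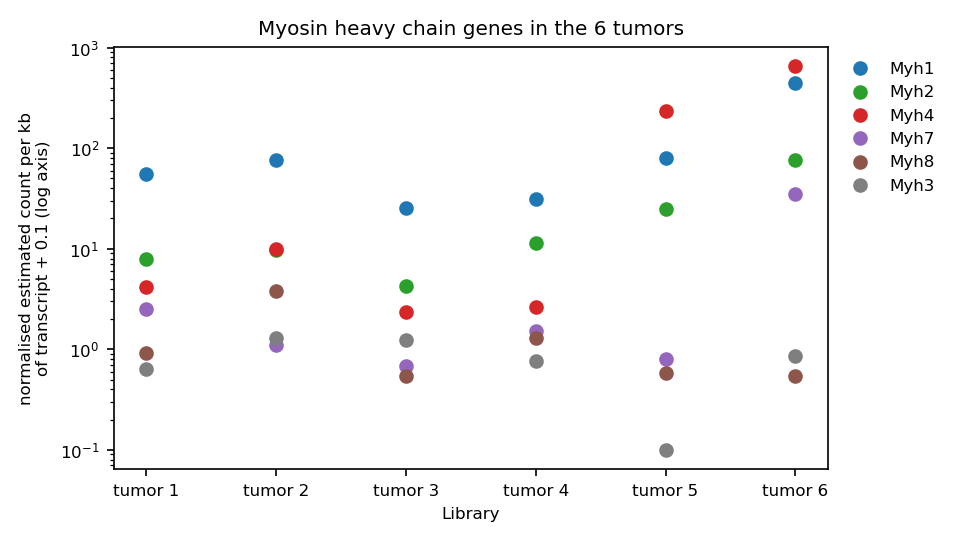
Myosin heavy chain levels in each of the 6 tumors, in normalised estimated counts per kb of transcript plus 0.1 on a log axis, 1 point per gene and tumor. Myh1 is the top point in tumors 1 to 4, where Myh4 and Myh2 overlie each other in tumor 2, and Myh4 is the top point in tumors 5 and 6 (654 per kb in tumor 6).

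Myosin genes share sequence, which limits how reads can be assigned. In the reference transcripts 26.7% of the 50-base windows of Myh1 and 26.9% of those of Myh2 recurred in another gene, mainly in each other, and the shares were 18.9% for Myh4, 21.4% for Myh8 and 22.2% for Myh7, shared with the cardiac Myh6. Myh7, the slow and cardiac heavy chain, was at 14.9, 6.34, 3.62, 8.78, 4.33 and 216 in tumors 1 to 6, against 2.89 and 8.59 in the cultures (log2 1.15 ± 1.31, adjusted p = 0.442). Tumors 2, 3 and 5 lay between the cultures, tumors 1 and 4 just above them and tumor 6 far above. The developmental chains stayed low, with embryonic Myh3 at 0 to 7.23 in tumors, against 6.94 and 6.64 in the cultures, and perinatal Myh8 at 2.72 to 22.7, against 0 and 0. Neither was tested.

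Of the 4 myosin light chains, 3 rose. Fast Mylpf was at 103, 215, 139, 114, 826 and 2112 in tumors 1 to 6, against 7.51 and 14.2 in the cultures (log2 4.68 ± 1.10, adjusted p = 0.00356). Fast Myl1 was at 53.6 to 1732 in tumors, against 2.31 and 1.90 in the cultures (log2 5.89 ± 1.24, adjusted p = 0.00193), with 23.4% of its windows shared with a pseudogene. Slow Myl2 was lower in level, at 9.11 to 20.4 in tumors 1 to 5 and 83.7 in tumor 6, against 0.578 and 0.949 in the cultures (log2 3.35 ± 0.77, adjusted p = 0.00336). Slow Myl3 was at 0.375 to 2.97 in tumors 1 to 5 and at 36.2 in tumor 6, against 3.48 and 2.32 in the cultures, and was not tested. For the slow myosins Myh7, Myl2 and Myl3, tumor 6 was thus the one tumor far above the rest.

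Troponins, the calcium switch of the thin filament, split by subunit. Fast Tnnt3 was at 322, 416, 230, 195, 1473 and 3816 in tumors 1 to 6, against 32.4 and 29.4 in the cultures (log2 4.16 ± 1.03, adjusted p = 0.00489). Fast Tnni2 was at 348 to 1685 in tumors, against 69.9 and 76.9 in the cultures (log2 2.90 ± 0.56, adjusted p = 0.00118). The slow subunits Tnnt1 and Tnni1 also rose, but tumors 5 and 6 did not lead in the same way. Tnnt1 was at 57.7, 71.4, 95.2, 81.0, 60.7 and 130 in tumors 1 to 6, against 8.67 and 6.64 in the cultures (log2 3.23 ± 0.33, adjusted p = 2.23e-05), a spread among tumors far smaller than that of Myh4. Tnni1 was at 426, 228, 117, 121, 52.0 and 365 in tumors 1 to 6, against 4.05 and 11.4 in the cultures (log2 4.46 ± 0.75, adjusted p = 0.000512). Tumor 1 was highest for Tnni1 and tumor 5 lowest. Tnnc1, the slow and cardiac calcium-binding subunit, did not pass, at 52.0 to 108 in tumors, against 58.3 and 52.2 in the cultures (log2 0.36 ± 0.29, adjusted p = 0.276). Tnnc2, the fast one, was at 63.8 to 2186 in tumors, against 29.5 and 26.6 in the cultures (adjusted p = 0.0612), and 74.0% of its exonic bases overlap Ube2c on the opposite strand.

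**Figure D2:**
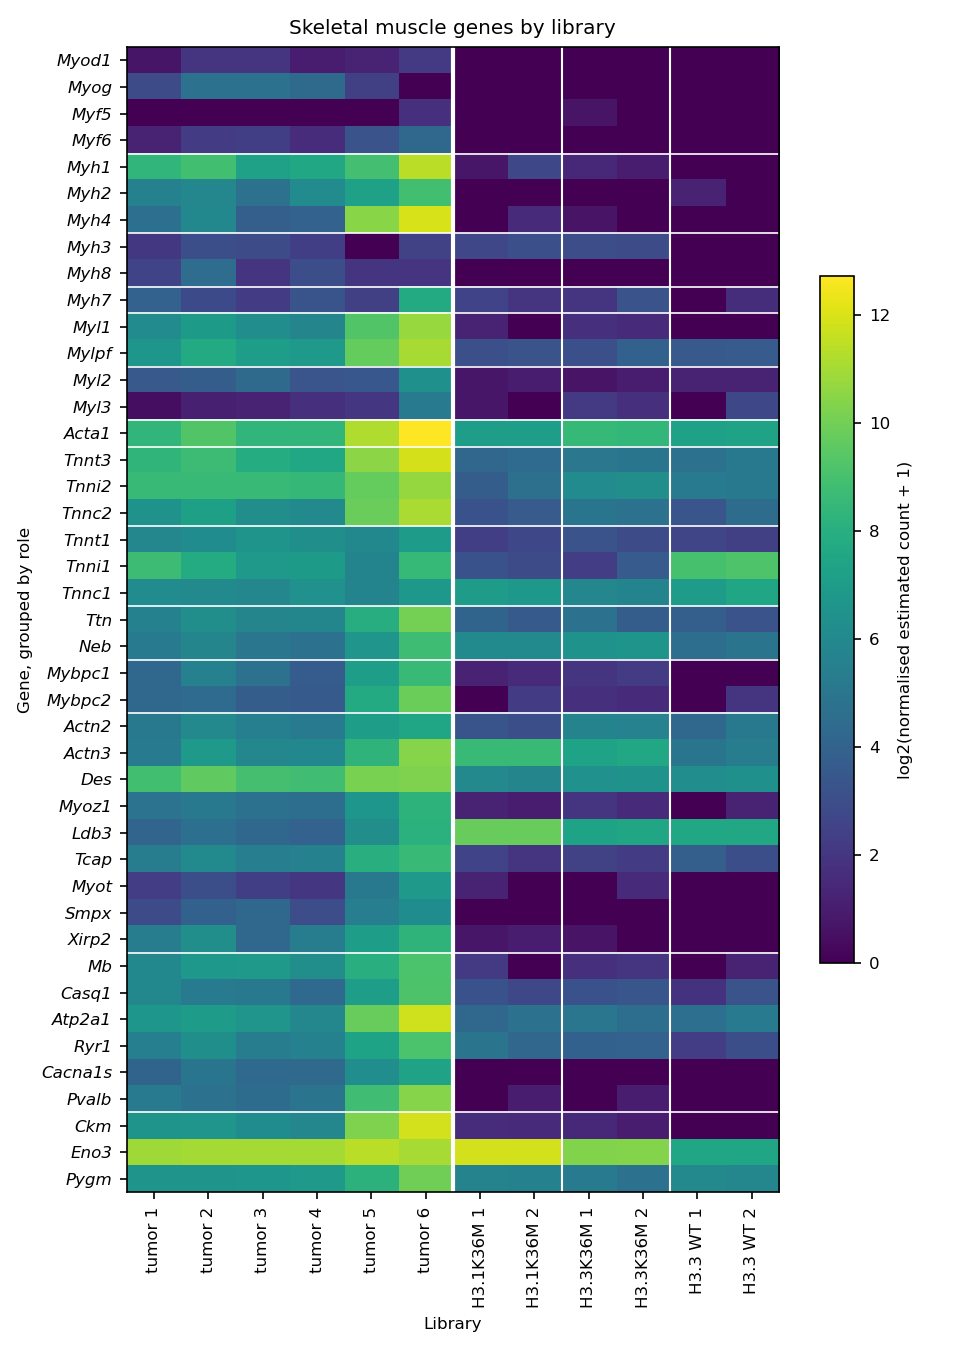
Heatmap of log2(normalised estimated count + 1) for the 43 members, 1 row per gene grouped by role, 1 column per library, with the 6 tumors at the left, then H3.1K36M, H3.3K36M and H3.3 WT cultures. Tumors 5 and 6 hold the brightest cells for most fast fiber genes, while Eno3, Ldb3, Tnni1 and Actn3 are bright in some cultures.

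Skeletal alpha-actin (Acta1) was already expressed in culture and did not pass, at 330, 620, 329, 335, 2360 and 6745 in tumors 1 to 6, against 364 and 337 in the cultures (log2 1.27 ± 1.11, adjusted p = 0.32). Tumors 1, 3 and 4 lay just below both cultures, and tumors 2, 5 and 6 above. The giant proteins titin (Ttn) and nebulin (Neb) did not pass either (adjusted p = 0.0515 and 0.622). Ttn was at 47.6 to 76.8 in tumors 1 to 4, 238 in tumor 5 and 1067 in tumor 6, against 27.2 and 12.3 in the cultures. Neb was at 26.3 to 53.3 in tumors 1 to 4, 98.1 in tumor 5 and 440 in tumor 6, against 90.7 and 94.0 in the cultures. The myosin binding proteins rose, slow Mybpc1 to 12.1 to 377 in tumors, against 2.89 and 3.80 in the cultures (log2 3.56 ± 1.13), and fast Mybpc2 to 11.1 to 916, against 2.31 and 1.90 (log2 3.98 ± 1.58).

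At the Z disc, which anchors thin filaments, 5 members rose and 4 did not pass. Desmin (Des), the muscle intermediate filament, was at 463, 786, 495, 452, 1150 and 1236 in tumors 1 to 6, against 86.7 and 91.1 in the cultures (log2 2.96 ± 0.41, adjusted p = 0.000159). Myoz1, a calcineurin-binding protein of fast fibers, was at 23.3 to 302 in tumors, against 2.89 and 1.90 in the cultures (log2 3.98 ± 0.91). Tcap (telethonin), the cap of titin, was at 39.6 to 388 in tumors, against 4.62 and 3.80 (log2 4.13 ± 0.88), and the actin-binding Xirp2 at 17.7 to 313, against 0.578 and 0 (log2 5.80 ± 0.91). All 6 tumors were above both cultures for each. Smpx, a small protein of striated muscle, was at 6.70 to 72.3 in tumors and at 0 in both cultures (adjusted p = 0.00138). The crosslinkers Actn2 and Actn3 and the adaptor Ldb3 were already present in the cultures. Ldb3 was at 16.8, 24.4, 17.7, 15.2, 76.5 and 278 in tumors 1 to 6, against 168 and 182 in the cultures (log2 -2.22 ± 1.01, adjusted p = 0.071). Of the tumors, tumor 6 was the only one above the cultures for Ldb3. Actn3, restricted to fast fibers in adult muscle, was at 38.8 to 305 in tumors 1 to 5 and 1381 in tumor 6, against 168 and 198 in the cultures (adjusted p = 0.761). Actn2 was at 34.9 to 184 in tumors, against 50.1 and 49.5 in the cultures (adjusted p = 0.561), and Myot was at 3.04 to 114, against 0 and 1.90 (adjusted p = 0.0648).

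Of the 6 genes of oxygen storage and calcium handling, 5 rose. Parvalbumin (Pvalb), the calcium buffer of fast fibers, was at 36.2, 27.1, 21.8, 28.3, 450 and 1350 in tumors 1 to 6, against 0 and 0.949 in the cultures (log2 5.96 ± 1.55, adjusted p = 0.00636). Myoglobin (Mb) was at 61.0 to 549 in tumors, against 2.31 and 2.85 in the cultures (log2 5.33 ± 0.74, adjusted p = 0.000154). Casq1, the calcium store protein of the sarcoplasmic reticulum, was at 19.2 to 576 in tumors, against 8.09 and 9.49 in the cultures (log2 2.85 ± 1.08). In every tumor these genes lay above both cultures, as did the calcium release channel Ryr1, at 39.4 to 559 in tumors, against 14.7 and 15.2 (log2 2.55 ± 0.91). Cacna1s, the voltage sensor that opens Ryr1, was at 16.1 to 157 in tumors and at 0 in every cultured library of both tables (adjusted p = 0.000335). The fast calcium pump Atp2a1 was at 101, 130, 99.3, 57.7, 859 and 3568 in tumors 1 to 6, against 31.1 and 22.8 in the cultures, with all 6 tumors higher but no call (log2 3.18 ± 1.40, adjusted p = 0.0644). Annotated exons on the opposite strand overlap 21.9% of Atp2a1, 31.9% of Mb and 15.5% of Ckm, and also part of Cacna1s and Myh7, and reads of the strands cannot be told apart without a stated strand setting.

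Among the enzymes, muscle creatine kinase (Ckm) had a range like that of Myh4. Ckm was at 94.5, 99.5, 70.7, 58.7, 1210 and 3705 in tumors 1 to 6, against 1.73 and 0.949 in the cultures (log2 6.69 ± 1.53, adjusted p = 0.00314). Pygm, the muscle glycogen phosphorylase, was at 94.9 to 1000.1 in tumors, against 35.3 and 26.6 in the cultures (log2 2.49 ± 0.84, adjusted p = 0.0228). Eno3, the muscle form of the glycolytic enzyme enolase, differed in kind, since it was high in both settings and even among tumors. Eno3 was at 1943, 2045, 2047, 2038, 2687 and 2156 in tumors 1 to 6, against 1273 and 1298 in the H3.3K36M cultures (log2 0.73 ± 0.12, adjusted p = 0.000523). Set against all 4 K36M cultures, H3.1K36M included, the Eno3 difference was -0.03 (adjusted p = 0.934).

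**Figure D3:**
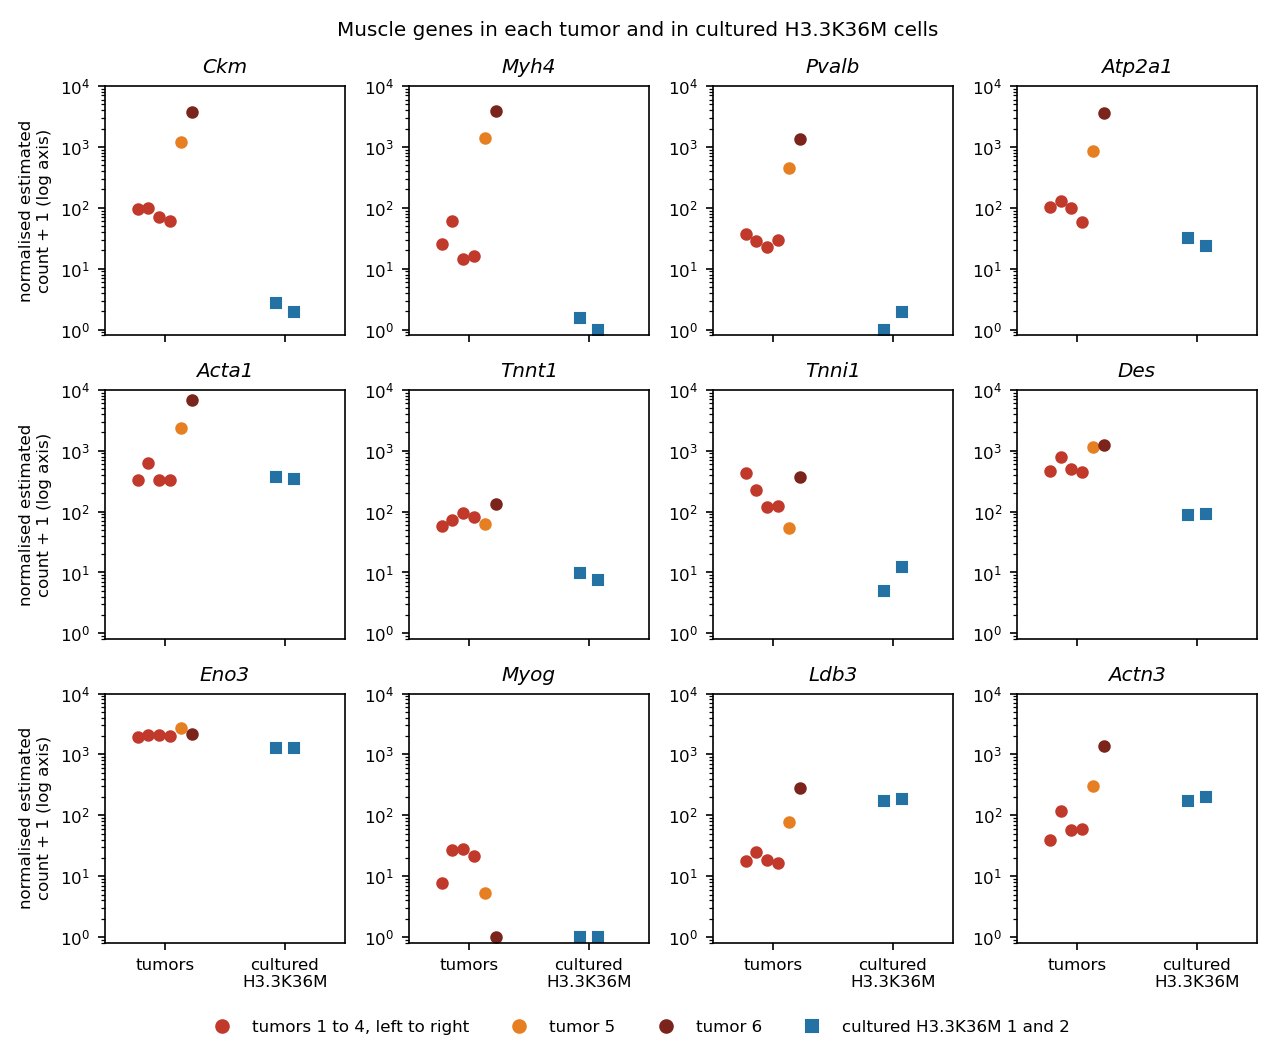
Values of 12 members in each of the 6 tumors (circles, tumors 1 to 6 from left to right) and in both cultured H3.3K36M libraries (squares), as normalised estimated count plus 1 on a log axis. Ckm, Myh4 and Pvalb are highest in tumors 5 and 6, Tnnt1 and Eno3 vary little among tumors, Myog is at 0 in tumor 6, and for Ldb3 tumor 6 is the one tumor above the cultures.

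Tumor 6 was the highest tumor for 38 of the 43 members. Tumor 5 was second for 33 of them, counting Myf5, for which tumors 1 to 5 tied at 0. Over all 14853 genes with a tumor value of at least 10, tumor 6 was highest for 39.5%. Summed over members, tumors 1 to 6 were at 5550, 6973, 5174, 4974, 18317 and 47017, or 0.0122 to 0.0187% of the library in tumors 1 to 4, 0.0515% in tumor 5 and 0.1383% in tumor 6. The H3.3K36M cultures were at 2564 and 2593, and the H3.1K36M cultures, with their high Eno3, at 5582 and 5567, above tumors 1, 3 and 4. With tumors 5 and 6 left out, a setting chosen after seeing their values, 30 members were called higher and 3 lower, namely Actn3 (log2 -1.52), Ldb3 (log2 -3.20) and Neb (log2 -1.36). Each of tumors 1 to 4 lay above every cultured library of the table for 31 of the 43 members. For this count, the calls without tumors 5 and 6 and the rank of tumor 5, no share over all genes was computed. Those counts are a description. Leaving out either cultured library ended the calls of Casq1, Mybpc1, Mybpc2, Myh4, Myog, Pygm and Ryr1 (adjusted p = 0.0717 to 0.158), and that of Pvalb was lost without H3.3K36M replicate 1 (adjusted p = 0.0541). In those fits the lone culture is assumed to vary like the tumors.

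Markers of other tissues also varied among tumors. The sum of 4 milk protein genes was 23.5, 6.33, 524, 15.2, 13434 and 3356 in tumors 1 to 6, against 1.16 and 0 in the H3.3K36M cultures, so tumors 5 and 6 led here too. The sum of 8 keratinocyte genes was 30201, 7623, 12411, 346, 28055 and 169 in tumors 1 to 6, against 233 and 208 in the cultures, with tumor 6 lowest. The 6 endothelial genes summed to 16572, 14275, 11291, 9389, 12611 and 29033 in tumors 1 to 6, highest in tumor 6, against 449.6 and 399.9 in the cultures. Cdh5 was the main part of that sum in tumor 6, at 22893.5. Cdh5, Pecam1 and Kdr were highest in tumor 6, whereas Tie1, Emcn and Vwf were highest in other tumors. The 7 adipocyte genes summed to 450, 569, 3395, 72.9, 4804 and 2305 in tumors 1 to 6, against 43.9 and 46.5. In tumor 6 Car3 was the main part of that sum, at 1613. Each of the other adipocyte genes was lower in tumor 6 than in tumors 3 and 5. The 7 macrophage genes summed to 133020 to 221132 in tumors, against 86.1 and 81.6 in the cultures. Of the satellite cell markers, Pax7 and Calcr were at 0 in all 6 tumors, and the 5 summed to 45.9 to 301 in tumors, against 579 and 593 in the cultures, with Megf10 the main part in each. The 12 cardiac genes summed to 2015, 2113, 2608, 2360, 1218 and 945 in tumors 1 to 6, lowest in tumors 5 and 6, against 302 and 284 in the cultures. Within that cardiac list Myh6, Nppb, Ryr2 and Sln were highest in tumor 6. The 11 smooth muscle genes summed to 7785 to 8605 in tumors, against 25459 and 24235. Acta2 was the main part of the culture sums, at 17983 and 16842, against 665 to 1181 in tumors. Myh11, Casq2 and Kcnmb1 instead lay above both cultures in every tumor. The part of these other tissues in the muscle values was not tested.

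The wider muscle list, 95 other genes of the same program of which 92 were in the table, had 84 tested in the tumor comparison. Of these, 45 rose, 12 fell and 27 did not pass, where 41.0% of all genes tested rose and 34.2% fell. Kbtbd5, a Kelch protein of the thin filament, was at 204 ± 39.9 in tumors (SD, n = 6), against 0.475 ± 0.671 in H3.3K36M cultures (n = 2, log2 7.18 ± 0.32, adjusted p = 6.02e-08). The fatty acid transporter Cd36, also a gene of macrophages and endothelium, rose by 7.02 ± 0.38, and Cacng1, a subunit of the muscle calcium channel, was at 82.1 ± 12.8 in tumors and at 0 in both cultures. Of 11 tested inhibitors of myogenic factors, 5 rose and 4 fell in tumors. Mdfi, which holds myogenic factors in the cytoplasm, changed by log2 5.65 ± 0.37 and Hey1 was at 131 ± 22.3 in tumors, against 20.6 ± 3.03 in the cultures, while Snai2 changed by -3.33 ± 0.28, Id3 by -1.32 ± 0.15 and Id1 by -1.16 ± 0.26.

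In culture most of the program was at low levels in every line. In the table with tumors 25 of the 43 members were under 10 in all 6 cultured libraries, and Myh8, Cacna1s, Myod1, Myog, Myf6 and Smpx were at 0 in all of them. The 17 members that could be tested included no myosin heavy chain. H3.3K36M cells, compared with H3.3 WT cells, had 8 members higher, 3 lower and 6 that did not pass. Over all 13404 genes tested 38.6% were higher and 37.5% lower, and 76.1% were called in either direction, so a call alone is common here. H3.1K36M cells, compared with the same H3.3 WT libraries, had 5 higher, 6 lower and 6 that did not pass, with 41.1% higher and 38.4% lower, and 79.5% called, over all genes. Both comparisons share the WT libraries. The median log2 difference over the members was 0.72 in H3.3K36M cells and -0.39 in H3.1K36M cells, against 0.00 and 0.02 over all genes tested. After quantile normalisation the H3.3K36M median of the members was -0.00.

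Slow troponin I was nearly absent from both mutant lines. Tnni1 was at 8.37 and 6.71 in H3.1K36M cells and at 4.05 and 11.4 in H3.3K36M cells, against 515 and 593 in H3.3 WT cells. Its log2 change was -6.03 ± 0.34 in H3.1K36M cells (adjusted p = 4.29e-10) and -6.13 ± 0.34 in H3.3K36M cells (adjusted p = 4.78e-10), and no other tested member fell by as much in either line. Both groups of mutant libraries lay far below the WT pair. Tnnc1 was at 126 and 109 in H3.1K36M cells and at 58.3 and 52.2 in H3.3K36M cells, against 132 and 180 in H3.3 WT cells. The log2 change of Tnnc1 was -1.46 ± 0.17 in H3.3K36M cells (adjusted p = 1.48e-06) and -0.39 ± 0.17 in H3.1K36M cells (adjusted p = 0.0462), where the call was lost after quantile normalisation (log2 -0.16, adjusted p = 0.374), without WT replicate 2 (log2 -0.16, adjusted p = 0.401), without any 1 of the mutant libraries (adjusted p = 0.0591 to 0.252) and without the filter on low values (adjusted p = 0.068).

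Enolase and alpha-actinin 3 moved the other way. Eno3 was at 3713 and 3711 in H3.1K36M cells and at 1273 and 1298 in H3.3K36M cells, against 178 and 185 in H3.3 WT cells. The log2 change of Eno3 was 4.35 ± 0.05 in H3.1K36M cells (adjusted p = 3.85e-18) and 2.82 ± 0.05 in H3.3K36M cells (adjusted p = 7.76e-16). Actn3 was at 391 and 391 in H3.1K36M cells and at 168 and 198 in H3.3K36M cells, against 29.9 and 40.5 in H3.3 WT cells (log2 3.45 ± 0.15 and 2.36 ± 0.15). For both genes the 3 lines formed steps that did not overlap, H3.1K36M above H3.3K36M above WT. Neb and Ryr1 were also higher in both mutant lines, Neb by log2 1.31 ± 0.19 in H3.1K36M and 1.79 ± 0.19 in H3.3K36M cells, and Ryr1 by 1.86 ± 0.39 and 1.31 ± 0.39 in the same order. Des and Tnnt3 were lower in H3.1K36M cells than in WT (log2 -0.44 ± 0.16 and -0.64 ± 0.27), and without WT replicate 2 neither call held (adjusted p = 0.0876 and 0.164).

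**Figure D4:**
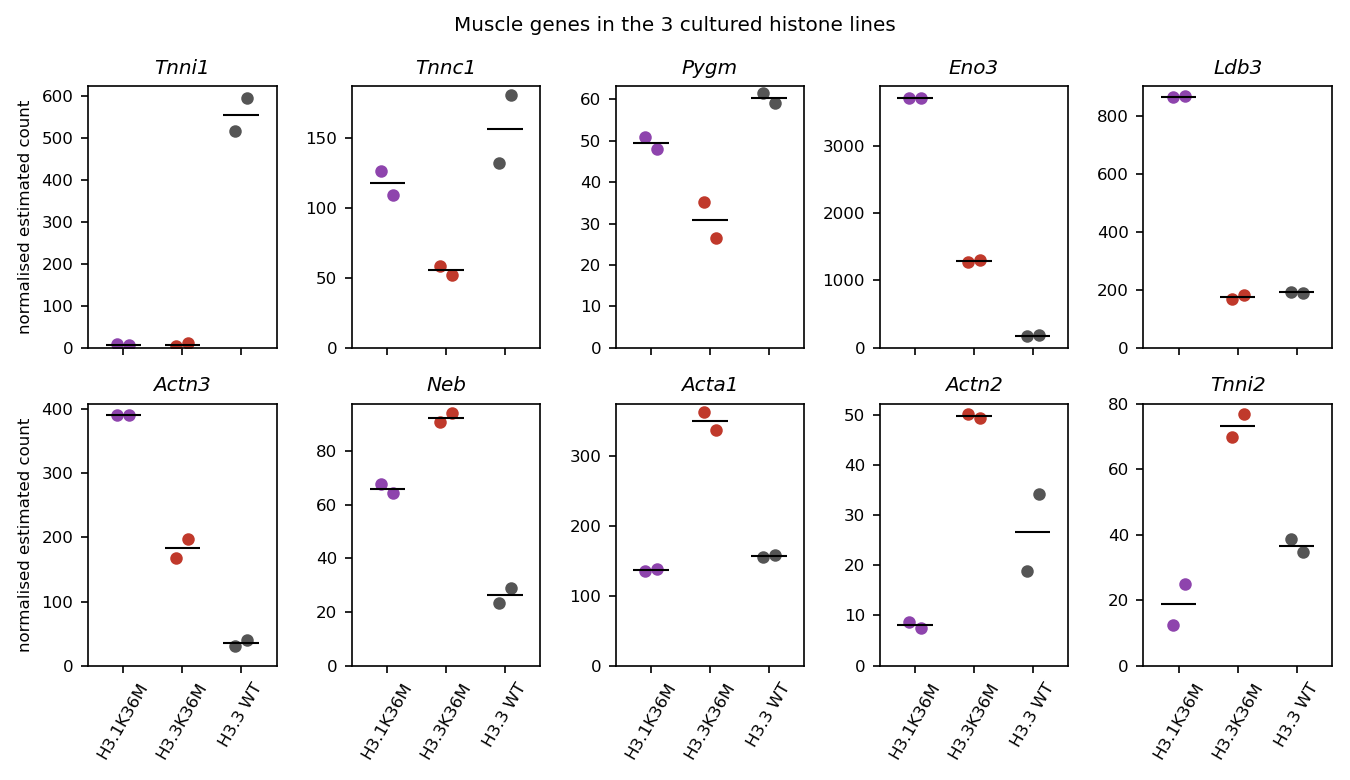
Normalised estimated counts of 10 members in the cultured lines H3.1K36M, H3.3K36M and H3.3 WT, 1 point per library and a line at the mean of both. Tnni1 is near 0 in both mutant lines (554 on average in WT), Eno3 and Actn3 step down from H3.1K36M through H3.3K36M to WT, and Ldb3 is high in H3.1K36M cells.

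Other members separated the mutant lines from each other. H3.1K36M cells, compared with H3.3K36M cells, had 5 members higher, 7 lower and 5 that did not pass, with 35.4% higher and 32.8% lower, and 68.2% called, over all genes. The median log2 difference of the members was -0.32, and it was 0.38 after quantile normalisation, so its sign depended on the scaling. With libraries scaled to the same total, 40.4% of the genes called were higher, against 51.9% before. Ldb3 was at 867 and 870 in H3.1K36M cells, against 168 and 182 in H3.3K36M cells (log2 2.30 ± 0.08, adjusted p = 6.60e-12), and the WT libraries, at 194 and 191, were close to the H3.3K36M pair (H3.1K36M against WT log2 2.17 ± 0.08). Acta1 was at 136 and 139 in H3.1K36M cells, against 364 and 337 in H3.3K36M cells (log2 -1.34 ± 0.10, adjusted p = 2.36e-08), with WT at 155 and 159. Here the H3.1K36M libraries lay near WT and the H3.3K36M libraries above.

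Actn2 and Tnni2 lay on opposite sides of WT in the mutant lines. Actn2 was at 8.72 and 7.46 in H3.1K36M cells, against 50.1 and 49.5 in H3.3K36M cells (log2 -2.49 ± 0.31, adjusted p = 6.09e-06), with WT at 18.9 and 34.3. Tnni2 was at 12.6 and 24.9 in H3.1K36M cells, against 69.9 and 76.9 in H3.3K36M cells (log2 -1.99 ± 0.28, adjusted p = 2.02e-05), with WT at 38.7 and 34.7. Against WT each was called lower in H3.1K36M and higher in H3.3K36M cells. For Tnni2 the H3.1K36M call was lost without H3.1K36M replicate 1 (log2 -0.54, adjusted p = 0.0759) and the H3.3K36M call without H3.3K36M replicate 2 (adjusted p = 0.0582). Tnnc2 and Des were also lower in H3.1K36M than in H3.3K36M cells (log2 -1.42 ± 0.38 and -0.60 ± 0.16), as were Neb and Tnnt3 (adjusted p = 0.0374 and 0.0392), both lost when any 1 library of these lines was left out, while Tnnc1, Actn3, Eno3 and Pygm were higher. Quantile normalisation ended the calls of Des (log2 -0.21, adjusted p = 0.251) and Tnnc2 (adjusted p = 0.0611), and that of Pygm was lost without H3.1K36M replicate 1 (adjusted p = 0.067) or H3.3K36M replicate 2 (adjusted p = 0.112). Pygm was at 50.9 and 47.9 in H3.1K36M cells, against 35.3 and 26.6 in H3.3K36M cells, with WT at 61.5 and 59.2, so it was lower than WT with a call in H3.3K36M cells (log2 -0.96 ± 0.21). Quantile normalisation ended the H3.3K36M against WT calls of Actn2, Tnni2, Tnnc2 and Ryr1 (adjusted p = 0.074 to 0.558), and without either H3.3K36M library the calls of Actn2 (adjusted p = 0.0803 and 0.074) and Tnnc2 (adjusted p = 0.175 and 0.115) were also lost.

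Of the wider muscle list, 51 genes were tested in the cultures, of which 18 were higher and 15 lower in H3.1K36M cells, and 21 higher and 16 lower in H3.3K36M cells, each against WT. Over all genes 79.5% and 76.1% were called in these comparisons, so calls in the list were no more frequent than elsewhere. H3.1K36M cells, set against H3.3K36M cells, had 14 higher and 17 lower, where 68.2% of all genes were called. Ankrd1, a stretch-responsive ankyrin repeat protein of striated muscle, was at 1273 ± 65.5 in H3.1K36M cells and 493.5 ± 8.23 in H3.3K36M cells, against 4.22 ± 2.19 in H3.3 WT cells (SD, n = 2 each, log2 8.00 ± 0.24 and 6.63 ± 0.24). The actin-capping Tmod1 was at 52.7 ± 5.99 in H3.1K36M and 52.2 ± 9.82 in H3.3K36M cells, and at 0 in both WT libraries. Trim54, a ubiquitin ligase of the sarcomere, rose by 5.68 ± 0.46 in H3.1K36M cells, against WT, and was 3.33 ± 0.46 above H3.3K36M cells. Trim63 (log2 -3.12 ± 0.36) and the glucose transporter Slc2a4 (log2 -2.68 ± 0.55) were lower in H3.1K36M than in H3.3K36M cells.

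Of the 11 tested inhibitors of myogenic factors, 2 were higher and 9 lower in H3.1K36M cells, and 4 higher and 6 lower in H3.3K36M cells, each against WT, where 79.5% and 76.1% of all genes were called. Hey1, a repressor downstream of Notch, changed by log2 -5.01 ± 0.28 in H3.1K36M and -4.51 ± 0.28 in H3.3K36M cells, and Mdfi by -4.41 ± 0.34 and -3.88 ± 0.34 in the same order. Snai1 changed by -1.70 ± 0.06 and -1.19 ± 0.06, and Snai2 was at 1492 ± 68.1 in H3.1K36M and 1224 ± 56.2 in H3.3K36M cells, against 4222 ± 72.1 in H3.3 WT cells. Twist2 rose in both, by 1.45 ± 0.07 and 1.31 ± 0.07. In H3.1K36M cells Id4 (log2 -4.27 ± 0.52) and Id3 (log2 -1.04 ± 0.03) were also lower by at least 1, and in H3.3K36M cells Hes1 (log2 -1.28 ± 0.05). H3.1K36M cells, set against H3.3K36M cells, had 2 inhibitors higher and 5 lower, where 68.2% of all genes were called. Id4 differed by log2 -3.46 ± 0.52 and Id2 by -1.39 ± 0.04. Myod1 and Myog stayed at 0 in all 6 of these cultured libraries.

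After knockdown of the H3K36 methyltransferases in parental cells, 6 members were lower and Eno3 was higher. Of 17 members tested in HMT siRNA cells, compared with control siRNA cells, the other 10 did not pass. Over all 13186 genes tested 31.9% were higher and 31.7% lower, and 63.5% were called. The members' median log2 difference was -0.28, against 0.00 over all genes. Tnni1 was at 55.3, 71.6 and 74.2 in HMT siRNA cells, against 185, 223 and 173 in control siRNA cells (log2 -1.52 ± 0.24, adjusted p = 6.78e-05). Acta1 was at 22.1, 30.6 and 35.1 in HMT siRNA cells, against 54.6, 65.7 and 39.8 in control siRNA cells (log2 -0.84 ± 0.18, adjusted p = 0.00057). Neither gene's groups overlapped.

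Des was at 27.7, 29.8 and 35.1 in HMT siRNA cells, against 45.5, 51.4 and 46.7 in control siRNA cells (log2 -0.62 ± 0.16, adjusted p = 0.00255). Ldb3 was at 165, 178 and 167 in HMT siRNA cells, against 232, 228 and 227 in control siRNA cells (log2 -0.43 ± 0.09, adjusted p = 0.000267). Tnnt1 and Ryr1 were called lower at values that rest on few reads, with Tnnt1 at 6.64, 0.746 and 2.06 in HMT siRNA cells, against 13.7, 22.6 and 5.19 in control siRNA cells, where the groups overlapped. Ryr1 was at 4.43, 0.746 and 1.03 in HMT siRNA cells, against 7.59, 6.27 and 5.19 in control siRNA cells, and without HMT siRNA replicate 2 its adjusted p was 0.0606. Eno3 was the member called higher, at 609, 601 and 555 in HMT siRNA cells, against 466, 453 and 429 in control siRNA cells (log2 0.39 ± 0.06, adjusted p = 1.99e-05). Of the 43 members 24 were under 10 in all 10 libraries of this table, and Myog, Myf6, Myh8 and Cacna1s were at 0 throughout.

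**Figure D5:**
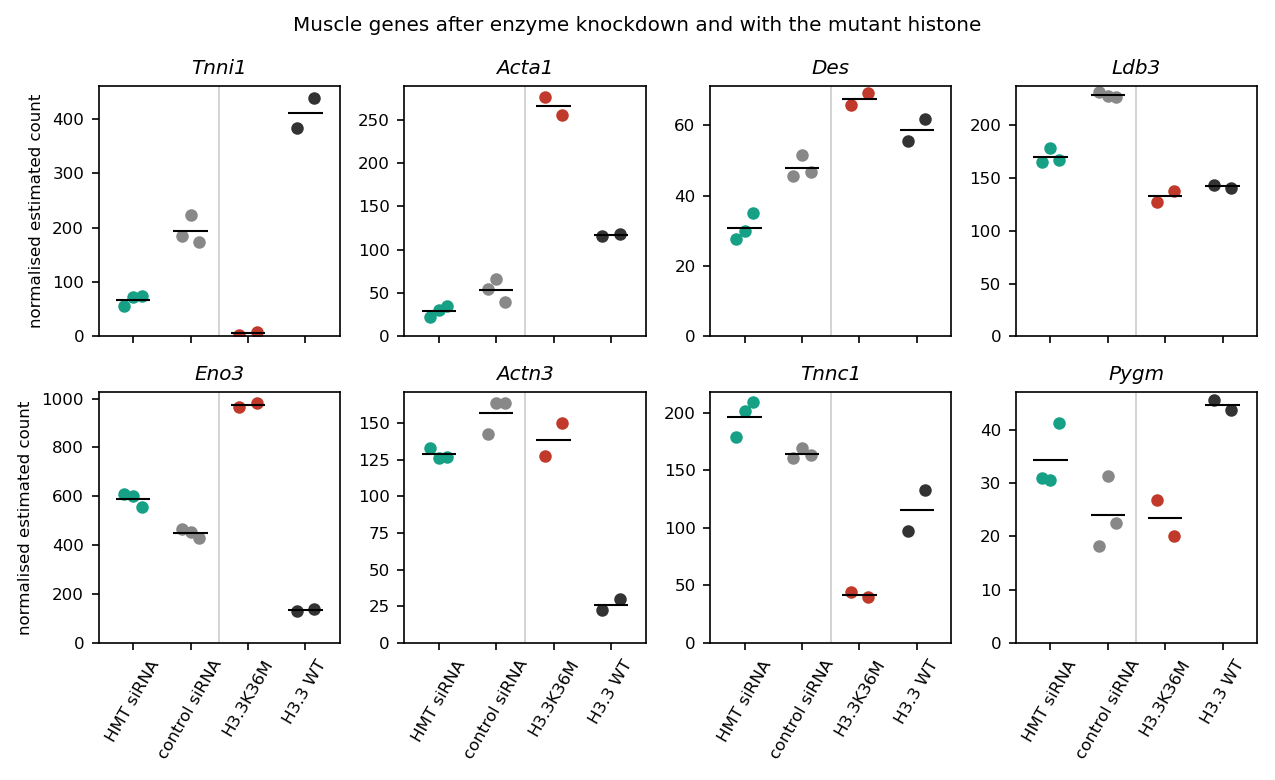
Normalised estimated counts of 8 members in the siRNA table, in HMT siRNA, control siRNA, H3.3K36M and H3.3 WT cells, 1 point per library and a line at the group mean. Tnni1 is lower in HMT siRNA than in control siRNA cells and lower in H3.3K36M than in H3.3 WT cells, while Acta1 and Des are lower after knockdown and Acta1 is higher with the mutant histone.

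The H3.3K36M response (H3.3K36M against H3.3 WT) and the HMT siRNA response (HMT siRNA against control siRNA) were compared as a difference within the siRNA table. That difference was positive for 9 of the 17 tested members, negative for 3 and not called for 5, with 27.5% positive and 27.4% negative, and 54.9% called, over all genes. Tnni1 fell in both responses, and by more with the mutant histone, with means of 5.85 ± 3.93 in H3.3K36M and 411 ± 39.1 in H3.3 WT cells (SD, n = 2 each, difference of log2 responses -4.52 ± 0.38, adjusted p = 1.48e-07). Eno3 rose in both and by more with the mutant, at 974 ± 12.3 in H3.3K36M and 134 ± 3.16 in H3.3 WT cells (difference 2.46 ± 0.10, adjusted p = 1.38e-13). Actn3 was at 139 ± 15.6 in H3.3K36M and 26.1 ± 5.42 in H3.3 WT cells (difference 2.66 ± 0.20, adjusted p = 2.61e-09). It was at 129 ± 3.73 in HMT siRNA and 157 ± 12.1 in control siRNA cells, not called alone (adjusted p = 0.0638). Acta1 moved in opposite directions, higher with H3.3K36M and lower with HMT siRNA (difference 2.02 ± 0.29, adjusted p = 9.94e-06). For Ryr1, at 11.3 ± 0.254 in H3.3K36M and 4.16 ± 1.66 in H3.3 WT cells, the difference was 2.74 ± 0.74 (adjusted p = 0.00422).

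The responses of Tnnc1 differed too, although its knockdown response alone was not called (adjusted p = 0.0731). Its mean was 41.9 ± 3.33 in H3.3K36M and 116 ± 25.1 in H3.3 WT cells, but 197 ± 15.5 in HMT siRNA and 165 ± 4.42 in control siRNA cells (difference -1.68 ± 0.19, adjusted p = 5.58e-07). Pygm was at 23.4 ± 4.67 in H3.3K36M and 44.7 ± 1.37 in H3.3 WT cells. It was at 34.3 ± 6.06 in HMT siRNA and 24.0 ± 6.71 in control siRNA cells, also not called alone (adjusted p = 0.0574). The difference of responses for Pygm was -1.43 ± 0.36. The starting levels were not alike, since in this table control siRNA cells were at 449 ± 18.8 for Eno3, 157 ± 12.1 for Actn3, 194 ± 26.2 for Tnni1 and 53.4 ± 13.0 for Acta1, and H3.3 WT cells at 134 ± 3.16, 26.1 ± 5.42, 411 ± 39.1 and 117 ± 1.46 for the same genes. The scramble-treated parental cells thus lay nearer to the H3.3K36M cells than to the WT cells for Actn3. The contributions of the transfection, the tagged histone and the library split to this gap were not tested.

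Of the wider muscle list, 46 genes were tested in the siRNA table, of which 8 were higher and 13 lower in HMT siRNA cells. Over all genes 63.5% were called in that comparison and 54.9% in the difference of responses. Ankrd1 was at 182 ± 15.8 in HMT siRNA cells, against 25.6 ± 6.35 in control siRNA cells (SD, n = 3 each, log2 2.80 ± 0.20). Rapsn, which clusters acetylcholine receptors, changed by log2 -2.47 ± 0.22, and the small heat shock protein Cryab by -2.02 ± 0.04. In the difference of responses 17 of the 46 were positive and 13 negative, with Dmd, the dystrophin gene, at 4.04 ± 0.44. Tmod1 was called positive too, but it was at 0 in both WT libraries. Of the 11 tested inhibitors 3 were higher and 8 lower in HMT siRNA cells, with Hey1 at log2 -1.64 ± 0.19, Mdfi at -1.57 ± 0.24 and Twist2 at 1.32 ± 0.08. In the difference of responses 3 inhibitors were positive and 6 negative, among them Hey1 (-2.81 ± 0.30), Mdfi (-2.23 ± 0.37), Hes1 (-1.70 ± 0.09) and Snai2 (-1.36 ± 0.07).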

How the data were processed

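RNA was extracted with Trizol and sequenced from TruSeq libraries, per the labels' protocols. Reads were aligned with Bowtie 1.0.0 and quantified with RSEM 1.2.12 to mm9, as the submitters' processing notes name them. The 26 columns in 3 tables hold, per gene, a signal made by the authors: estimated counts divided by 1 factor per library (median normalisation, per the labels). The tables were scaled separately, so comparisons stay within a table. At lower read counts 100.0% of values were multiples of 0.01 of a step per library, and higher values were not checked for this. Only 35.1 to 56.0% of values were whole reads (tolerance 0.01), so no count test was run. Whether counting used strand is not given in the sources used here.

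Every test was two-sided, made by limma 3.58.1 (R 4.3.3) with its trend and robust options on log2(value + 1), which understates fold changes where values are low. Benjamini-Hochberg adjustment covered each fit's whole gene set, at a threshold of 0.05, and a gene entered with 10 or more in 2 or more libraries of the fit. Tumors and H3.3K36M cultures were fitted together (8 libraries), the 3 histone lines together (6 libraries) and the siRNA table in 1 fit (10 libraries). The fit was tested on simulated data. Named genes were all members, the 3 genes with the largest change in the wider muscle list, and inhibitors called by at least log2 1. 1 gene that this rule names is not reported here. The members and lists were chosen with earlier results of these data known, and support nothing by themselves. Transcript lengths, shared windows and exon overlaps came from GENCODE M21 and promoter windows from RefSeq, both of GRCm38 and not mm9. Other steps ran in Python 3.11.15 (pandas 2.3.3, numpy 2.4.6, matplotlib 3.10.9). Alternatives changed the pseudocount, the filter, the scaling, the variance options, the table, the libraries in the fit and the replicate block.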

Additional observations from a re-analysis of the deposited data

Results flagged for a closer look

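A tumor far from the other 5 was found for 4 of 40 members examined. The share over all genes was not computed, so this count is a description. A chance rate of about 1 in 20 cannot be set against this, because the members moved together across tumors. Myl3 reached the level for examination only through tumor 6. Tumor 6 stood apart for the slow myosin genes Myh7 (216), Myl2 (83.7) and Myl3 (36.2), and tumor 5 for Eno3 (2687). No marker list of another tissue had such a tumor among the 10 examined.

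The response to H3.3K36M, against H3.3 WT, and the response to HMT siRNA, against control siRNA, differed by the interaction test for 12 of 17 members tested, where 54.9% of all genes tested differed. The difference of log2 responses was positive for Acta1 (2.02), Tnnt1 (2.47), Tnni2 (1.41), Actn3 (2.66), Neb (1.82), Des (0.82), Ryr1 (2.74), Ldb3 (0.33) and Eno3 (2.46). It was negative for Tnni1 (-4.52), Tnnc1 (-1.68) and Pygm (-1.43). The calls of Ldb3, Tnni2 and Tnnt1 (adjusted p = 0.049, 0.0291 and 0.0209) were lost when some libraries were left out, and that of Ldb3 also with the replicate block (adjusted p = 0.058).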

How the results depend on the processing

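In the tumor comparison 26 members were called higher, and 18 to 29 when each library was left out in turn. No member was lower, and 0 to 1 when each library was left out, with 1 without tumor 6, after quantile normalisation, against all 4 K36M cultures or in a fit of all 12 libraries (Ldb3 each time), and 3 with tumors 5 and 6 left out, a setting chosen after seeing the data. With a pseudocount of 10, 20 members were called higher, and after quantile normalisation 22. That pseudocount ended the calls of Casq1, Mybpc1, Mybpc2, Myh4, Myog and Pvalb (adjusted p = 0.0573 to 0.133), and the log2 change of Myh4 became 3.78. Rescaling moved the median of all genes from 0.14 to -0.08 (quantile) or -0.05 (same total), and that of the members from 3.23 to 2.73 or 3.17. Eno3 changed sign against all 4 K36M cultures (-0.03), where H3.1K36M cultures were higher than tumors. For H3.3K36M against WT, 8 members higher became 5 at a minimum of 50, 4 after quantile normalisation and 5 in the siRNA table. For H3.1K36M against WT, 5 higher became 9 with no filter, and 6 lower became 3 to 7 when each library was left out, with 3 without WT replicate 2 or H3.1K36M replicate 1. For H3.1K36M against H3.3K36M, 7 lower became 4 at a minimum of 50 and 3 after quantile normalisation. For HMT siRNA, 1 higher became 2 with a pseudocount of 10, 3 after quantile normalisation and 1 to 2 when each library was left out (2 without WT replicate 1, WT replicate 2 or control replicate 2). In the difference of responses 9 positive became 5 after quantile normalisation, and 6 to 8 when each library was left out. The cause of these changes was not tested.

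The labels do not say whether same-numbered libraries pair. Their deviations correlated at 0.021, 0.170 and 0.049 between HMT and control siRNA cells, and at -0.041 to 0.032 between cultured lines. Between tumors and H3.3K36M cultures the correlations were 0.117 and -0.167. With so few libraries per group, these weak correlations cannot exclude pairing. With the replicate block, 30 members were higher and 3 lower in tumors. Tumors 3 to 6 have no culture of the same number, so that fit in effect compares only tumors 1 and 2 with the cultures. The other comparisons had counts within 1 of those without the block. The calls themselves changed for Tnnc1 in H3.1K36M against WT (lost, adjusted p = 0.0557) and, in the difference of responses, for Ldb3 (lost, adjusted p = 0.058) and Actn2 (gained, adjusted p = 0.0434). Values that rest on a few reads are imprecise at these depths.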
